A study of Mus musculus with 14 samples.

Results

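Fam110b, Nav1, Eif4g3, Inf2 and Mroh2b were followed at every CpG site that the methylation table assigns to them, 59 of its 75761 sites. The 5 genes were selected on the measured levels themselves, as genes with a site outside promoters that was lower in obese DIO-HFD mice or that differed between the DIO-VSG and DIO-LFD groups. For that reason all values against DIO-HFD, and those of DIO-VSG against DIO-LFD, are given as descriptions of these mice and not as tests. Fam110b has 16 sites, Nav1 has 2, Eif4g3 has 8, Inf2 has 24 and Mroh2b has 9.

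Methylation was measured by reduced representation bisulfite sequencing in the mammary fat pad opposite the tumor of 14 female mice. The mice were C57BL/6N (C57BL/6NCrl in the methods) of wild-type genotype. The 3 CON-LFD mice were kept on food with 10% of calories from fat throughout, whereas the 4 DIO-HFD mice ate a 60% fat diet throughout. The mice of the weight-loss groups, 3 DIO-LFD and 4 DIO-VSG, had the 60% diet for 15 weeks and the 10% diet afterwards, with vertical sleeve gastrectomy, a removal of most of the stomach, in DIO-VSG mice and a sham procedure in every other mouse. All mice arrived at 8 weeks of age and received E0771 mammary tumor cells in the opposite fat pad 22 weeks after they were assigned to a diet, 7 weeks after surgery, and the tissue was collected 4 weeks later, so that every group bore tumors. The 3 groups that ate the 10% diet at the end are called low-fat mice here, and they number 10. The tissue is a whole fat pad, in which fewer cells of a type and less methylation per cell cannot be told apart.

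Methylation of cytosine in CpG dinucleotides silences transcription when it covers a promoter, whereas in introns and between genes its relation to transcription is less direct, and low methylation there often marks regulatory elements. Fam110b encodes a protein found at centrosomes. Nav1, neuron navigator 1, binds microtubules at their growing ends. Eif4g3 is a scaffold of the complex that brings mRNA to the ribosome. Inf2, inverted formin 2, both builds and severs actin filaments. Mroh2b encodes a protein made of HEAT-like repeats.

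The positions of the sites set limits to the gene names. All 16 Fam110b sites lay in introns of Fam110b itself, which spans chr4:5644090-6108223 on the forward strand of mm10 in GENCODE vM21. Of the Inf2 sites, 21 lay in introns of Inf2 (chr12:112588784-112615557, forward strand), and the other 3 were intergenic, 30581 to 30707 bp before its transcript start. Both Nav1 sites lay outside Nav1 (chr1:135434580-135607295, reverse strand), 10679 and 10712 bp before its start in an intron of the long noncoding RNA Gm38399. Eif4g3 (chr4:137993022-138208508, forward strand) had 5 sites at its own promoter, and the other 3 lay 49919 to 52694 bp before its start in introns of Ece1, which encodes endothelin-converting enzyme 1. All 9 Mroh2b sites were intergenic, 33649 to 36547 bp before the start of Mroh2b (chr15:4898737-4962205, forward strand). The table sets an intron flag at 41 of the 59 sites, against 41.3% of all its sites, and a promoter flag at 5, against 25.8%.

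The stretches with the sites that the values turn on are shown first. Each is the forward strand of mm10, written 5′ to 3′, with capitals on the C and G of the CpG sites that the table covers.

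Inf2 intron, chr12:112593369-112593456, 4 covered sites: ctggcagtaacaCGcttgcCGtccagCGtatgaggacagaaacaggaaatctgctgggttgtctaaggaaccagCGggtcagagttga
Fam110b intron, chr4:5762910-5763015, 5 covered sites: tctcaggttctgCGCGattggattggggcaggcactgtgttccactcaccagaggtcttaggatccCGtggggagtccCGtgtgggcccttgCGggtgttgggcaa
Nav1 upstream, chr1:135617943-135618037, 2 covered sites: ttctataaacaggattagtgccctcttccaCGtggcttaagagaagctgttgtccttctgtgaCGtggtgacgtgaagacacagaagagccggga
Eif4g3 upstream in Ece1, chr4:137940288-137940369, 1 covered site: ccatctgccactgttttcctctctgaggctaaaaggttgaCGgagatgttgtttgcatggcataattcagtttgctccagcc
Eif4g3 upstream in Ece1, chr4:137941013-137941094, 1 covered site: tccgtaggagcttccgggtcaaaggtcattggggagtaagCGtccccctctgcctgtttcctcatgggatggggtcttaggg
Mroh2b upstream, chr15:4862170-4862260, 3 covered sites: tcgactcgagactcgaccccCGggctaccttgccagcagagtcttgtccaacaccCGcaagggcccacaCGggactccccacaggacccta

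The Inf2 stretch has 4 CpGs and all are covered, whereas the table covers 2 of 4 CpGs in the Nav1 stretch and 3 of 6 in the Mroh2b stretch. All of the Fam110b and Mroh2b stretches are soft-masked as repeats in the genome, and over all sites 16 of 16 Fam110b and 9 of 9 Mroh2b sites are soft-masked, against 2 of 24 for Inf2, 1 of 8 for Eif4g3, 0 of 2 for Nav1 and 23.9% of the table. The 41 bases centred on a site occur once in the genome at all Nav1 and Eif4g3 sites and at 23 of the 24 Inf2 sites. For Fam110b they occur once at only 4 of 16 sites and up to 4546 times, and for Mroh2b at 0 of 9 sites and up to 272 times. How reads from such copies were placed was not tested.

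DIO-HFD replicate 1 stood apart from the rest of its group. Its mean level over all 75761 sites was 65.0%, the highest of the 14 mice, whereas DIO-HFD replicates 2, 3 and 4 had 56.9, 57.4 and 57.3%, the lowest. The low-fat mice lay between, at 59.9 to 64.1%. The main values against DIO-HFD are therefore given with and without that mouse. Cell type markers were read at sites within 1000 bp of the transcript start. Of 14 lymphocyte genes listed, 7 had a site, and 4 (Cd79b, Ikzf1, Lat and Zap70) had 10 sites within that distance. Over these, the mean level was 51.7 to 66.8% in DIO-HFD and 36.4 to 43.7% in DIO-VSG mice, with 42.7 to 48.4% in CON-LFD and 40.6 to 65.6% in DIO-LFD mice. Over 4 adipocyte genes with 8 such sites (Cebpa, Lipe, Pnpla2 and Pparg, of 14 listed), it was 37.6 to 40.9% in DIO-HFD, 39.4 to 44.9% in DIO-VSG, 36.5 to 39.9% in CON-LFD and 38.2 to 40.5% in DIO-LFD mice. For mammary epithelium (Cdh1, Esr1 and Krt5, of 8 listed, with 3 such sites) it ranged from 29.5 to 42.2% in DIO-HFD mice and from 31.5 to 40.8% in low-fat mice, and none of the 6 macrophage and 5 endothelial genes had such a site. The part of the cell makeup of the fat pad in the levels was not tested.

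Over the 59 sites together, the mean of the 4 DIO-HFD mice was lower than that of CON-LFD mice at 48 sites, where 68.5% of all sites of the table were lower. Against DIO-LFD it was lower at 50 sites (68.1% of all sites), and against DIO-VSG at 51 sites (71.6% of all sites). It was lower than each of the 3 groups at 43 sites, against 53.0% of the table, and nothing is read from this difference since the genes were chosen by such values. Without DIO-HFD replicate 1 the counts were 47, 51, 50 and 45 of 59 in the same order, against 72.1, 71.5, 73.5 and 59.8% of all sites. The 43 sites were 14 of the 16 of Fam110b, both of Nav1, 5 of the 8 of Eif4g3, 20 of the 24 of Inf2 and 2 of the 9 of Mroh2b. At the 9 Mroh2b sites, DIO-HFD was lower than CON-LFD at 3, than DIO-LFD at 7 and than DIO-VSG at 6. The label under which the genes were grouped, less methylated in obesity, did not hold for the Mroh2b mean against CON-LFD and DIO-VSG mice. That mean over its 9 sites was 90.7% ± 1.31 in DIO-HFD mice (SD, n = 4), 88.1% ± 1.97 in CON-LFD mice (n = 3), 92.3% ± 0.887 in DIO-LFD mice (n = 3) and 89.3% ± 3.8 in DIO-VSG mice (n = 4).

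**Figure D1:**
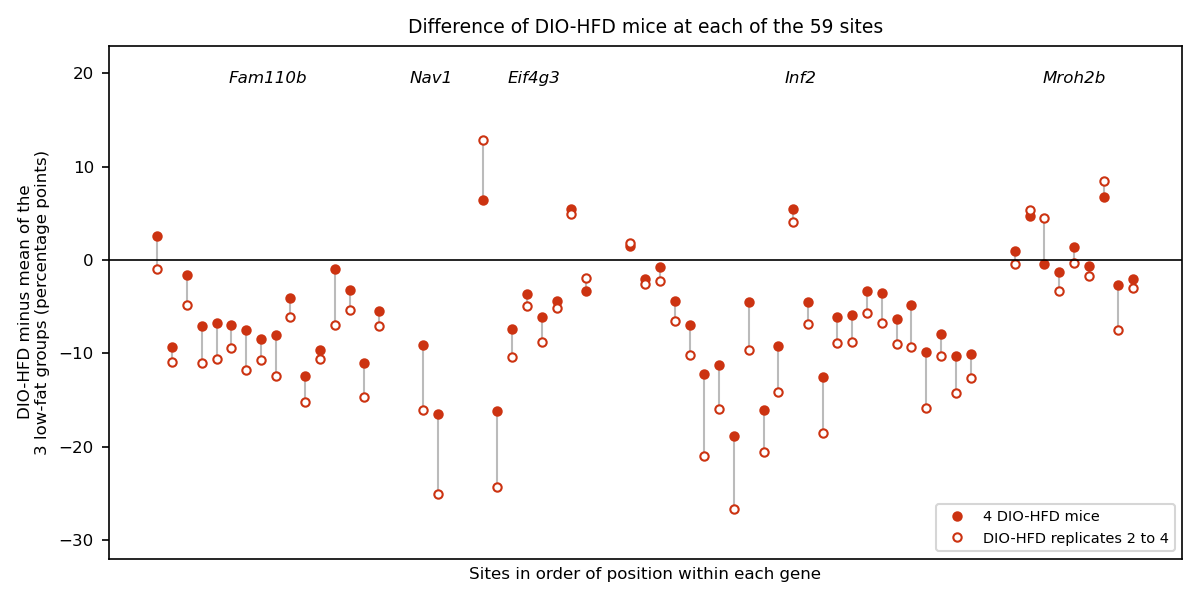
DIO-HFD mean minus the mean of the 3 low-fat group means, in percentage points, at each of the 59 sites in order of position, with all 4 DIO-HFD mice (filled) and with replicates 2 to 4 (open). Most points of Fam110b, Nav1 and Inf2 lie below 0, those of Mroh2b lie on both sides, and 2 of the 8 Eif4g3 sites lie above 0.

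Averaged over its sites, Nav1 was 12.8 percentage points lower in DIO-HFD than in low-fat mice, and 20.5 points lower without DIO-HFD replicate 1. Inf2 was lower by 6.85 points, or 10.4 without that mouse, and Fam110b by 6.25, or 9.28. Eif4g3 was lower by 3.62 points, or 4.71, and Mroh2b was higher by 0.752 points, or 0.246. The whole table was lower by 3.47 points, or 5.43 without that mouse, so a lower level in DIO-HFD mice was common to most sites of the table. Leaving out another DIO-HFD mouse made some of these differences smaller. The DIO-HFD minus low-fat difference became -7.56 points for Nav1 and -2.22 for Eif4g3 without DIO-HFD replicate 3, and -4.36 for Inf2 and -3.88 for Fam110b without replicate 2. Over 3 other settings the Eif4g3 difference ran from -5.685 to -1.829 points.

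Inf2 had the most sites of the 5 genes. At chr12:112593395, 4613 bp past the transcript start in an intron, the levels were 27.1, 6.72, 10.6 and 8.93% in DIO-HFD replicates 1 to 4, and 25.0, 37.2 and 17.8% in CON-LFD mice. DIO-LFD mice had 33.3, 32.3 and 30.6%, and DIO-VSG mice had 31.6, 31.5, 26.6 and 27.8%. DIO-HFD replicates 2 to 4 lay below all 10 low-fat mice, and replicate 1 lay among them. The means were 13.4% ± 9.32 in DIO-HFD, 26.7% ± 9.82 in CON-LFD, 32.1% ± 1.40 in DIO-LFD and 29.4% ± 2.58 in DIO-VSG mice. On the M scale, log2 of the methylated over the unmethylated share with an offset of 0.01 added to each, DIO-LFD was higher than DIO-HFD by 1.73 (SE 0.478). That difference was 2.20 without DIO-HFD replicate 1 and 1.46 without DIO-HFD replicate 2. It was 1.44 with mice centred on their median and 1.23 with an offset of 0.1.

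The covered sites within 100 bp followed much the same order of mice. At chr12:112593381, 4599 bp past the start, DIO-HFD replicates 2 to 4 had 11.3, 17.0 and 10.3%, replicate 1 had 44.3%, and low-fat mice had 37.6 to 45.8% except CON-LFD replicate 3, which had 17.6%. At chr12:112593388, 4606 bp past the start, the levels were lower in every group, with 6.40, 5.31 and 10.5% in DIO-HFD replicates 2 to 4, 28.3% in replicate 1 and 10.9 to 24.1% in low-fat mice. At chr12:112593443, 4661 bp past the start, replicates 2 to 4 had 19.7, 20.7 and 20%, replicate 1 had 40.0% and low-fat mice had 23.5 to 42.0%. At chr12:112593324, 4542 bp past the start, replicates 2 to 4 had 18.9, 25.0 and 26.4%, replicate 1 had 42.4% and low-fat mice had 24.8 to 49.7%, and the groups overlapped. At each of these 4 sites CON-LFD replicate 3 was the lowest low-fat mouse.

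The last site of the stretch, chr12:112593578, departed from this order. All 4 DIO-HFD mice had 39.5 to 47.0% there, above the 3 CON-LFD mice at 30.9, 29.3 and 32.0%. DIO-LFD mice had 44.6, 39.8 and 44.4%, and DIO-VSG mice 39.3, 43.4, 32.3 and 40.3%. CON-LFD mice were thus the lowest group, below each mouse of the other 3 groups, and DIO-LFD exceeded CON-LFD by 0.74 in M (SE 0.285, limma adjusted p = 1.00).

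**Figure D2:**
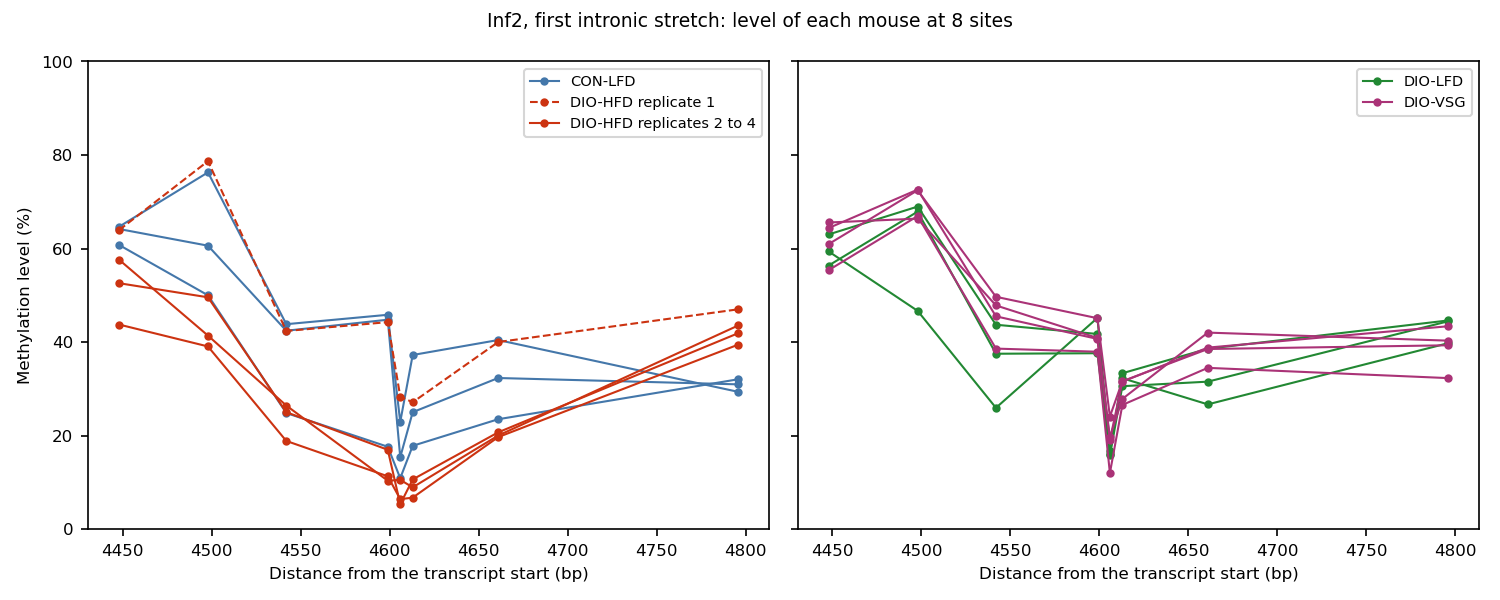
Methylation level in % of each mouse at the 8 Inf2 sites, by distance in bp from the transcript start, with CON-LFD and DIO-HFD mice on the left and DIO-LFD and DIO-VSG mice on the right. From 4599 to 4661 bp DIO-HFD replicates 2 to 4 and CON-LFD replicate 3 lie below the other mice, DIO-HFD replicate 1 (dashed) lies among or above the low-fat mice, and at 4796 bp the DIO-HFD mice lie above the CON-LFD mice.

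Averaged over these 8 sites, which span 349 bp, DIO-HFD mice had 46.5, 23.2, 27.8 and 27.4%. CON-LFD mice had 39.5, 45.1 and 29.7%, DIO-LFD mice had 43.8, 36.6 and 40.2%, and DIO-VSG mice had 45.2, 44.5, 38.0 and 43.8%. Further into the gene, 8 sites from 9003 to 9330 bp averaged 70.4, 82.1 and 79.4% in DIO-HFD replicates 2 to 4, 90.7% in replicate 1 and 80.7 to 91.6% in low-fat mice, so replicate 3 overlapped the low-fat mice there. The 3 sites from 10071 to 10194 bp averaged 50.6, 53.4 and 52.0% in replicates 2 to 4, 68.3% in replicate 1 and 59.7 to 70.6% in low-fat mice, with no overlap outside replicate 1. The 3 intergenic sites before the start had 89.9 to 94.4% in DIO-HFD and 89.7 to 96.2% in low-fat mice, and their ranges overlapped almost wholly. At 7 of the 24 Inf2 sites DIO-HFD replicates 2 to 4 lay below all 10 low-fat mice, as they did at both Nav1 sites, at 3 Eif4g3 sites and at 0 Fam110b and 0 Mroh2b sites, in all 12 of 59 against 16.7% of the table.

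Nav1 had the largest difference of the 5 gene means. At chr1:135618006, DIO-HFD replicates 2 to 4 had 58.8, 46.1 and 56.3% and replicate 1 had 87.9%, the highest of all mice. CON-LFD mice had 81.4, 74.8 and 70.6%, DIO-LFD mice had 79.4, 75.7 and 83.3%, and DIO-VSG mice had 84.6, 80.0, 77.8 and 82.3%. The means were 62.3% ± 17.9 in DIO-HFD, 75.6% ± 5.46 in CON-LFD, 79.5% ± 3.8 in DIO-LFD and 81.2% ± 2.95 in DIO-VSG mice, and DIO-VSG exceeded DIO-HFD by 1.22 in M, by 1.85 without replicate 1, by 0.86 without replicate 3 and by 0.73 with mice centred on their median. The other Nav1 site, at chr1:135617973, was lower in every mouse but kept this arrangement. There DIO-HFD replicates 2 to 4 had 51.6, 35.3 and 44.4%, replicate 1 had 71.3%, and low-fat mice had 53.9 to 68.8%.

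Among the 3 Eif4g3 sites that lie in Ece1, neighbours went opposite ways. At chr4:137941053, DIO-HFD replicates 2 to 4 had 56.5, 45.5 and 59.5% and replicate 1 had 86.7%. The low-fat mice had 68.8 to 85.7%, with means of 79.2% ± 5.33 in CON-LFD, 75.0% ± 6.11 in DIO-LFD and 80.3% ± 4.50 in DIO-VSG mice, against 62.1% ± 17.5 in DIO-HFD. DIO-VSG exceeded DIO-HFD by 1.18 in M, by 1.78 without replicate 1, by 0.82 without replicate 3 and by 0.70 with mice centred on their median. At chr4:137940328, also in an Ece1 intron, DIO-HFD replicates 2 to 4 had 91.9, 90.4 and 88.5%, above all 10 low-fat mice at 69.2 to 86.3%. Replicate 1 had 64.6% at that site, the lowest of all mice. DIO-VSG mice had 72.7 to 74.4% there and CON-LFD mice 80.4 to 86.3%, so those groups did not overlap either. At the third site, chr4:137943103, replicates 2 to 4 had 76.5, 74.0 and 79.3%, replicate 1 had 89.0% and low-fat mice had 82.9 to 95.7%. DIO-HFD replicate 1 was thus the lowest DIO-HFD mouse at chr4:137940328 and the highest at the other sites in Ece1.

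At the Eif4g3 promoter itself, the 5 sites averaged 42.3, 42.1, 36.5 and 39.3% in DIO-HFD mice. The low-fat mice had 40.3 to 46.1%, so the ranges overlapped. At chr4:137992944, which was not tested because its SD was under 0.05, DIO-HFD replicates 2 to 4 had 36.4, 32.7 and 32.1%, below all 10 low-fat mice at 37.7 to 45.7%, and replicate 1 had 44.1%. The promoter levels ran from 3.60 to 22.2% at chr4:137992934 to 48.7 to 70.2% at chr4:137993007, 15 bp before the transcript start. At chr4:137993463 the DIO-HFD mean was the highest of the 4 groups, 46.9% ± 1.52 against 41.3% ± 1.99 in CON-LFD, 39.1% ± 7.78 in DIO-LFD and 43.7% ± 5.56 in DIO-VSG mice.

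**Figure D3:**
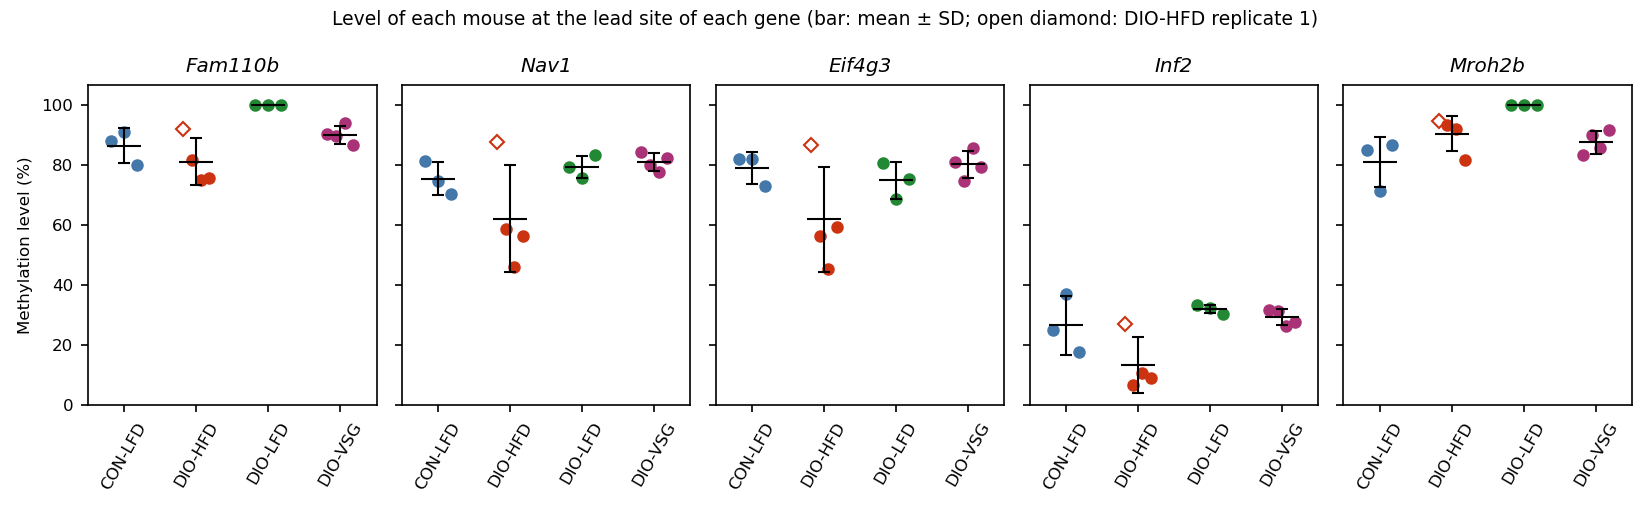
Methylation level in % of each mouse at 1 site of each gene (of the sites outside promoters with a lower mean in DIO-HFD than in the group compared, the one with the smallest limma p; for Mroh2b only DIO-LFD mice were higher), by group, with the mean and SD. DIO-HFD replicate 1 (open diamond) lies above the other DIO-HFD mice in all 5 panels, and DIO-LFD mice are all at 100% for Fam110b and Mroh2b.

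Fam110b had 13 of its sites within 429 bp of an intron. Averaged over these, DIO-HFD mice had 96.1, 77.3, 88.3 and 84.2% and CON-LFD mice 93.0, 93.1 and 90.8%. DIO-LFD mice had 96.1, 95.8 and 94.4%, and DIO-VSG mice had 94.5, 94.4, 94.7 and 84.2%. DIO-VSG replicate 4 therefore lay with DIO-HFD replicate 4, below the other 9 low-fat mice. At chr4:5763002 the DIO-LFD mice were at 100% in all 3, whereas DIO-HFD mice had 92.0, 81.8, 75.0 and 75.9%. CON-LFD mice had 88.2, 91.3 and 80.0%, and DIO-VSG mice had 90.3, 89.7, 94.1 and 86.7%, so DIO-LFD lay above every other mouse. DIO-LFD exceeded DIO-HFD by 4.50 in M (SE 0.469), by 4.90 without DIO-HFD replicate 1 and by only 1.755 with an offset of 0.1. The limma adjusted p of 0.00895 in the fit reported describes a comparison the gene was chosen by. That value was above 0.05 in 5 of 7 other settings, with up to 0.436, and without DIO-HFD replicate 2 (0.0554) or 4 (0.0539).

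The same 3 mice were at 100% at chr4:5762922, where DIO-HFD mice had 92.0, 78.3, 88.2 and 76.5%, CON-LFD mice had 96.1, 95.7 and 93.1%, and DIO-VSG mice had 93.3, 100, 100 and 81.2%. They were also at 100% at chr4:5762924, where DIO-HFD mice had 88.0, 69.6, 94.1 and 88.9%, CON-LFD mice had 92.2, 95.7 and 89.7%, and DIO-VSG mice had 95.0, 97.9, 100 and 75.0%. A level of 100% was thus not particular to DIO-LFD mice at these sites, since DIO-VSG replicate 3 had it at both and replicate 2 at the former. The covered site nearest to chr4:5763002, at chr4:5762988, had 96.0, 100 and 90.0% in DIO-LFD, 95.8, 81.8, 94.1 and 86.2% in DIO-HFD, 84.6, 95.5 and 93.1% in CON-LFD and 96.7, 93.1, 89.5 and 87.5% in DIO-VSG mice, and all groups overlapped there. At chr4:5762976, between these sites, DIO-LFD mice had only 84.8, 73.7 and 66.7%, DIO-HFD mice had 96.0, 72.7, 77.3 and 66.0%, CON-LFD mice had 80.6, 82.5 and 87.9%, and DIO-VSG mice had 80.0, 81.6, 70.9 and 80.0%. The groups overlapped at that site. The 41 bases around the site at chr4:5763002 occur 3011 times in the genome, those around chr4:5762922 and chr4:5762924 occur 13 and 2 times, and those around chr4:5762976 occur 889 times.  Elsewhere in the gene, at chr4:5715001, the DIO-HFD mean was above the CON-LFD mean, but the mice overlapped, at 73.7 to 100% and 71.4 to 96.0%. DIO-VSG mice had 92.3 to 98.7% there, against 76.5 to 85.7% in DIO-LFD mice.

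**Figure D4:**
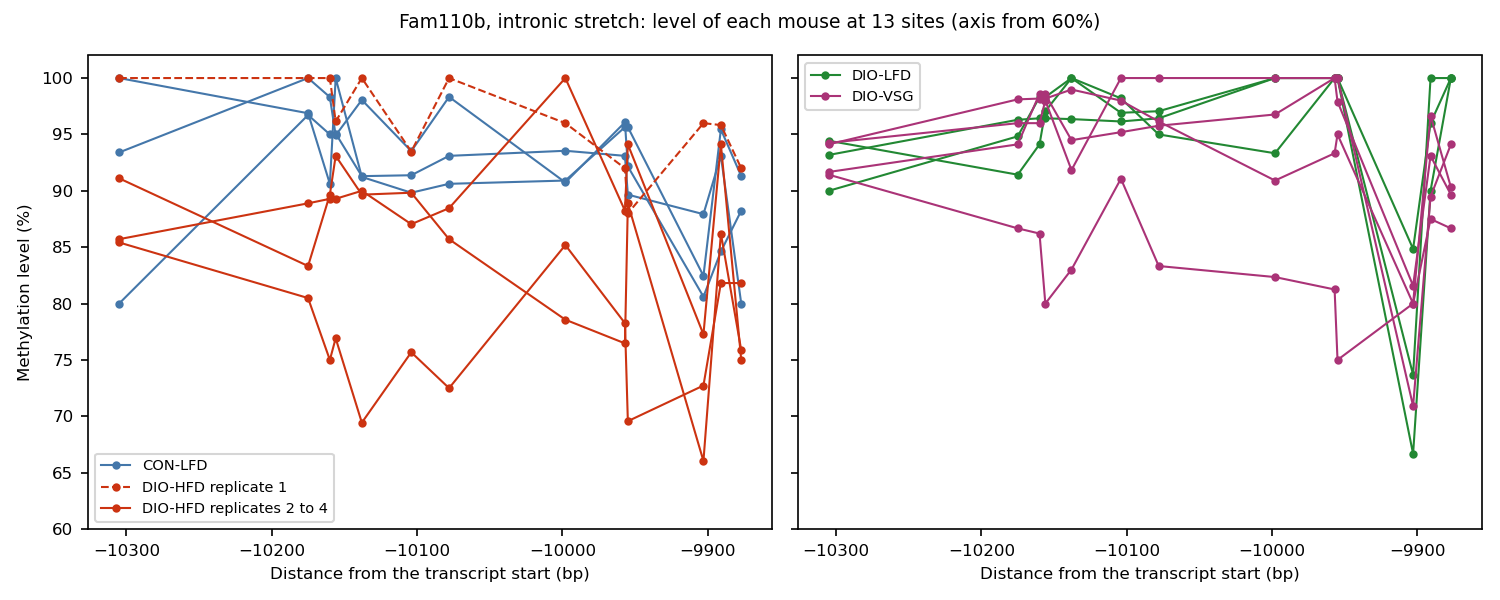
Methylation level in % (axis from 60%) of each mouse at the 13 Fam110b sites, by distance in bp from the transcript start used in the table, with CON-LFD and DIO-HFD mice on the left and DIO-LFD and DIO-VSG mice on the right. The lowest means over the stretch are those of DIO-HFD replicate 2 (77.3%) and of DIO-HFD replicate 4 and DIO-VSG replicate 4 (84.2% each), and most mice dip at 1 site near its end.

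Mroh2b had 6 sites within 195 bp and 3 more within 114 bp. Its most different site, chr15:4862190, lies in the MspI recognition sequence CCGG. DIO-LFD mice were at 100% in all 3 there, DIO-HFD mice had 94.7, 93.3, 92.3 and 81.8%, CON-LFD mice had 85.0, 71.4 and 87.0%, and DIO-VSG mice had 83.3, 90.0, 85.7 and 91.7%. DIO-LFD mice lay above all others, and DIO-HFD mice lay between them and CON-LFD mice in the mean, at 90.6% ± 5.91 against 81.1% ± 8.46. DIO-LFD exceeded DIO-HFD by 3.39 in M, or by 3.6 without DIO-HFD replicate 1, and DIO-VSG minus DIO-LFD was -3.88 in M. With an offset of 0.1, DIO-LFD exceeded DIO-HFD by only 1.048, and DIO-VSG minus DIO-LFD was -1.315. At the next covered site, at chr15:4862225, DIO-LFD mice had 100, 100 and 85.0%, DIO-HFD mice had 92.3 to 100%, CON-LFD mice 90.0 to 92.9% and DIO-VSG mice 70.0 to 100%. At chr15:4862239 all groups overlapped, with DIO-LFD mice at 81.8 to 95.7%, DIO-HFD mice at 72.2 to 100%, CON-LFD mice at 78.6 to 100% and DIO-VSG mice at 66.7 to 100%. The 41 bases around the site at chr15:4862190 occur 44 times in the genome. At chr15:4864975 the order differed again, with 79.0 to 92.9% in DIO-HFD, 81.8 to 88.9% in CON-LFD, 64.7 to 86.5% in DIO-LFD and 62.1 to 75.9% in DIO-VSG mice.

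**Figure D5:**
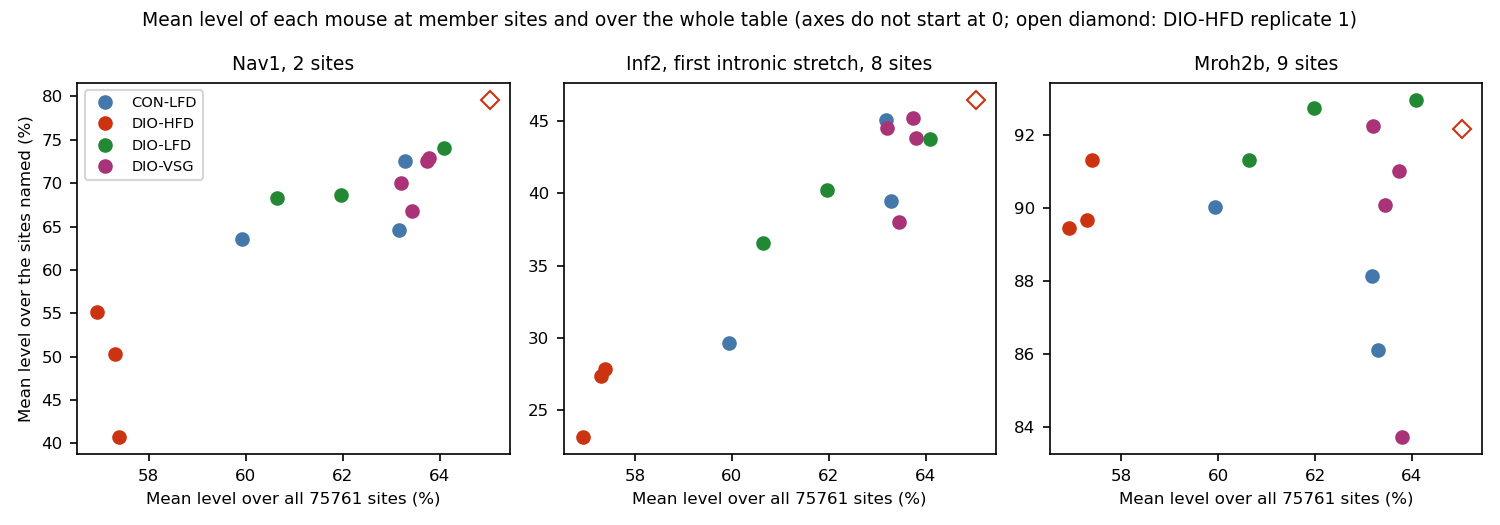
Mean level in % of each mouse over the 2 Nav1 sites, the 8-site Inf2 stretch and the 9 Mroh2b sites, against its mean level over all 75761 sites. The Nav1 and Inf2 levels are lowest in the 3 DIO-HFD mice with the lowest table means and highest in DIO-HFD replicate 1, whereas the Mroh2b levels show no such order.

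Across mice, the levels of Nav1 and of the Inf2 stretch moved with the mean of the whole table. The 3 mice with the lowest table mean, DIO-HFD replicates 2 to 4, had the 3 lowest levels at both, and DIO-HFD replicate 1, with the highest table mean, had the highest level at both, 79.6% and 46.5%. CON-LFD replicate 3, whose table mean of 59.9% was the lowest of the low-fat mice, had the lowest low-fat level at both, 63.6% and 29.7%. Mroh2b did not follow it, with 89.5, 91.3 and 89.7% in DIO-HFD replicates 2 to 4 and the lowest level, 83.7%, in DIO-VSG replicate 4, whose table mean was 63.8%.

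Whether neighbouring sites agreed was read from adjacent covered sites at most 100 bp apart. In the 5 genes, 31 of 37 such pairs (83.8%) had a DIO-HFD minus low-fat difference of the same sign, close to the 81.7% of 38096 pairs over the table. They were 14 of 15 pairs for Inf2, 11 of 12 for Fam110b, 1 of 1 for Nav1, 2 of 2 for Eif4g3 and 3 of 7 for Mroh2b. Without DIO-HFD replicate 1 the count was 33 of 37, against 84.9% of the table. From 100 to 1000 bp, 4 of 8 pairs had the same sign, against 56.6% of the table, and for Eif4g3 it was 0 of 3. A mouse was on the same side of the mean of all mice at both sites of a pair within 100 bp in 73.2% of cases, against 72.4% in the table. Neighbouring sites share mice and often reads, so these shares describe the sites and are not tested.

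In the limma fit of the 4 groups over the 65610 sites whose level varied across mice by an SD of at least 0.05, 53 of the 59 sites were tested. At an unadjusted p under 0.05, CON-LFD differed from DIO-HFD at 5 of 53 sites, 3 higher and 2 lower, where 7.76% of all sites did. DIO-LFD differed from DIO-HFD at 10 sites, all higher, against 10.1% of all sites. DIO-VSG differed from DIO-HFD at 14 sites, 12 higher and 2 lower, against 25.0%. DIO-VSG differed from DIO-LFD at 3 sites, all lower, against 3.98%. Without DIO-HFD replicate 1 the counts against DIO-HFD were 20, 26 and 27 of 53, where 30.9, 32.6 and 44.9% of all sites passed. After adjustment, 1 site passed for DIO-LFD against DIO-HFD, the Fam110b site at chr4:5763002, where 0.00305% of all sites passed. For DIO-VSG against DIO-LFD the Mroh2b site at chr15:4862190 passed (limma adjusted p = 0.0460), again against 0.00305% of all sites. This Mroh2b site passed in only 6 of the 14 fits that left out a mouse and in 2 of 7 other settings. Without DIO-HFD replicate 1, 6, 11 and 19 of the 53 sites passed the adjusted threshold for CON-LFD, DIO-LFD and DIO-VSG against DIO-HFD, where 7852, 9551 and 22557 of all 65610 sites did.

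The comparisons of the weight-loss groups with CON-LFD mice were not themselves used to choose the genes. However, the CON-LFD, DIO-LFD and DIO-VSG mice all entered comparisons with DIO-HFD that were. The counts and p-values that follow are therefore not independent of the choice. DIO-LFD differed from CON-LFD at 7 of 53 sites at an unadjusted p under 0.05, where 2.81% of all sites did. Of these 6 were higher, 3 in Fam110b, 2 in Mroh2b and 1 in Inf2, and 1 Inf2 site was lower, at chr12:112591584, with 72.7, 76.2 and 62.0% in DIO-LFD and 79.0, 84.2 and 80.4% in CON-LFD mice. After adjustment over all tested sites 2 of them passed, against 0.00457% of all sites, which is 3 sites. These were the Mroh2b site at chr15:4862190, higher in DIO-LFD by 4.54 in M (SE 0.499, limma adjusted p = 0.0167), and the Fam110b site at chr4:5763002, higher by 3.99 (SE 0.501, limma adjusted p = 0.0491). With an offset of 0.1 the difference was only 1.767 at the Mroh2b site and 1.394 at the Fam110b site. Both sites were picked for the levels of these DIO-LFD mice against DIO-HFD, so the p-values are not independent of that choice. At both, DIO-LFD mice were at 100% in 3 of 3, where the M scale is most sensitive, and fitted on the level itself neither passed (limma adjusted p = 1.00 for both). Nor did the Fam110b site pass in 13 of the 14 fits that left out a mouse, or the Mroh2b site without CON-LFD replicate 2 (limma adjusted p = 0.0750). In other settings the Mroh2b site did not pass in 5 of 7 (limma adjusted p = 0.204 to 1.00) and the Fam110b site in 6 of 7.

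DIO-VSG differed from CON-LFD at 2 of 53 sites at an unadjusted p under 0.05, where 2.86% of all sites did, both in Mroh2b. The site at chr15:4862305 was higher and the site at chr15:4864975 lower. After adjustment 0 of 53 sites passed by limma, against 0.00305% of all sites. At the Inf2 site at chr12:112593395 DIO-VSG exceeded CON-LFD by 0.24 in M (SE 0.478), and at the Nav1 site at chr1:135618006 by 0.45 (SE 0.564). At the Eif4g3 site at chr4:137941053 it did so by 0.10 (SE 0.563), at the Fam110b site at chr4:5763002 by 0.46 (SE 0.469) and at the Mroh2b site at chr15:4862190 by 0.66 (SE 0.467). The limma adjusted p was 0.979 at 4 of these sites and 0.989 at the Eif4g3 site, and the differences at the Eif4g3 and Inf2 sites changed sign when some mice were left out. With a mouse left out, the difference ran from 0.0958 to 0.7475 at the Fam110b site, from 0.243 to 0.9205 at the Mroh2b site and from 0.262 to 0.681 at the Nav1 site.

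Related genes are given for the same comparison of DIO-VSG with DIO-HFD mice, in counts at an unadjusted p under 0.05, where 13250 of all 65610 tested sites were higher and 3183 lower. Fam110a, of 2 relatives of Fam110b the 1 with a site, had 2 of 25 tested sites higher and 8 lower. The median difference over these 25 sites was 0.604 in M, higher in DIO-VSG, so the sites under 0.05 ran against the median. Nav2 and Nav3 had 0 of 5, and Eif4g1 and Eif4g2 had 2 of 5 higher. Other formins (Diaph2, Fhod1, Fmnl1 and Grid2ip) had 6 of 26 higher and 11 lower. Mroh1, Mroh2a, Mroh3, Mroh5, Mroh6 and Mroh8 had 1 of 17 higher and 0 lower.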

How the data were processed

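DNA was cut with MspI, fragments of selected size were bisulfite sequenced, and the authors aligned the reads to mm10 with Bismark and called methylation. They deposited the level of each site in each mouse as a fraction, the methylated share of reads, without read counts. The depth and precision per mouse and site are therefore not given. Levels such as 81.82, 92.31 and 71.43% at Mroh2b chr15:4862190 equal ratios of small whole numbers, which few reads could give. Levels of 100% at such sites may then also rest on few reads, but depth was not estimated. The authors left out 1 CON-LFD and 1 DIO-LFD mouse as outliers. The levels of the 14 mice, grouped by the sample labels, are given here in percent. The table names the gene of the nearest transcript, and 12 of its sites lie off the CpG cytosine. The 5 genes, marker lists and gene families were chosen with earlier results of these data known.

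The 65610 sites with an SD of at least 0.05 were tested on M, the log2 ratio of (b + 0.01) to (1 − b + 0.01) for a level b. A single limma model (version 3.58.1, R 4.3.3) held all 4 groups, with Benjamini-Hochberg adjustment over all tested sites and a threshold of 0.05. The methods name no design for this test. Each sample has a number of its own in the labels and was taken as a separate mouse. In simulated data for DIO-VSG against CON-LFD over the 65610 sites, 157 of 200 sites changed by 4 in M were recovered with 4 false calls, and 32 of 200 changed by 2 with 4 false calls. The simulated noise was normal and independent, with the same spread in all groups at a site. It held no shift of a whole mouse such as that of DIO-HFD replicate 1, so these counts need not hold in the real data. Sites named were, in each gene, the site outside promoters with the smallest p against DIO-HFD and a lower mean in DIO-HFD than in the group compared (for Mroh2b, in DIO-LFD only), every site past the adjusted threshold, and covered sites within 100 bp. Others of those given by value were chosen after their values were seen, as were the stretches shown. Sequences were read with samtools 1.23.1 from the RefSeq copy of mm10, and positions were annotated with GENCODE vM21. Stretches join sites at most 500 bp apart. Python 3.11.15 (NumPy 2.4.6, pandas 2.3.3, Matplotlib 3.10.9) was used.

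Alternatives were limma on the level, an offset of 0.1, a trended and robust eBayes, a fit of the 2 groups compared, mice centred on their median, no SD filter or 0.1, the replicate number as a block, and each mouse left out.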

Additional observations from a re-analysis of the deposited data

Results flagged for a closer look

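In 42 groups of 4 mice the highest or lowest mouse was compared with the rest, and about 2.1 are set apart by chance, as 1 in 20 groups is. DIO-VSG replicate 4 had a mean of 85.7% over the Fam110b sites, where the other DIO-VSG mice had 93.2 to 94.3%, a gap of 0.880 of the group's range. DIO-VSG replicate 3 had 70.9% at Fam110b chr4:5762976, against 80.0 to 81.6% in the others, a gap of 0.852. DIO-HFD replicate 1 had 40.0% at Inf2 chr12:112593443, against 19.7 to 20.7%, a gap of 0.950.

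In the comparison of DIO-LFD with CON-LFD, 2 sites passed after adjustment with limma, both picked for the levels of the same DIO-LFD mice against DIO-HFD, so that the p-values are not independent of the choice. At Mroh2b chr15:4862190 DIO-LFD mice were higher than CON-LFD (limma adjusted p = 0.0167, higher in 3 of 3 mice than in any CON-LFD mouse), and at Fam110b chr4:5763002 DIO-LFD mice were higher than CON-LFD (limma adjusted p = 0.0491). The Mroh2b site passed in 13 of the 14 fits that left out a mouse and in 2 of 7 other settings. For the Fam110b site these were 1 of 14 and 1 of 7, and neither site passed on the level itself. Both are soft-masked, and the 41 bases around them occur 44 and 3011 times in the genome. DIO-VSG mice were lower than DIO-LFD at the Mroh2b site (limma adjusted p = 0.0460), in a comparison the genes were chosen by, which is a description and not a test. That value stayed under 0.05 in 6 of the 14 fits that left out a mouse and in 2 of 7 other settings.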

How the results depend on the processing

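Depth is not given, groups hold 3 or 4 mice, and many Fam110b and Mroh2b sites lie in repeats, so single levels cannot be weighed by their reads. The counts that follow are of the 53 tested sites with an unadjusted p under 0.05, each with the share of all tested sites under the same setting in parentheses. CON-LFD against DIO-HFD (5 in the fit reported) gave 3 (7.56%) with mice centred, 8 (8.87%) with an offset of 0.1, and 2 to 20 with a mouse left out: 20 (30.9%) without DIO-HFD replicate 1, 2 (4.29%) without CON-LFD replicate 2, and 3 (4.93 and 4.33%) without DIO-HFD replicate 2 or 3. DIO-LFD against DIO-HFD (10) gave 8 to 26 with a mouse left out, with 26 (32.6%) without DIO-HFD replicate 1. DIO-VSG against DIO-HFD (14) gave 4 to 27, with 27 (44.9%) without DIO-HFD replicate 1, 4 (14.4%), 8 (14.6%) and 7 (14.9%) without replicates 2, 3 and 4, and 7 (17.9%) and 8 (20.2%) without DIO-VSG replicates 1 and 2. DIO-VSG against DIO-LFD (3) gave 5 (5.94%) with the fit of the 2 groups compared, 5 (4.65%) with mice centred, and 3 to 5 with a mouse left out, with 5 (6.77%) without DIO-HFD replicate 1. DIO-LFD against CON-LFD (7) gave 4 to 8 with a mouse left out, with 4 (2.65%) without CON-LFD replicate 2. DIO-VSG against CON-LFD (2) gave 7 (6.53%) with the fit of the 2 groups compared, 1 (2.32%) with the level, 1 (2.55%) with trend and robust, and 0 to 5 with a mouse left out: 5 (5.51%) without DIO-HFD replicate 1, 4 (2.64%) when DIO-VSG replicate 4 was left out, 0 (2.57%) when CON-LFD replicate 3 was, and 1 when CON-LFD replicate 1 (2.76%) or DIO-VSG replicate 1 (2.52%) was. With an SD of at least 0.1 only 8 of the 59 sites were tested, and the 6 counts were 0 (7.61%), 1 (11.8%), 2 (39.8%), 1 (3.5%), 0 (2.31%) and 0 (2.04%) in this order, as fewer sites entered. The cause of the other changes was not tested.

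With the replicate block the counts were 5 (7.49%), 11 (9.33%), 14 (27.6%), 4 (4.48%), 9 (2.99%) and 4 (3.47%) in the same order, and 0 of the 53 sites passed after adjustment. The 19 correlations between same-numbered mice ran from -0.0804 to 0.202 (median 0.0341) with 4 over 0.1, and the 54 between different-numbered mice from -0.289 to 0.191 (median -0.0163) with 2 over 0.1. These correlations do not decide whether the replicate numbers pair the mice. The labels name no pairs, so none were used in the fit reported.

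At the Mroh2b site at chr15:4862190, DIO-LFD against CON-LFD kept its direction, with a limma adjusted p of 0.0116 to 1.00 over the alternatives and 0.00401 to 0.0750 with a mouse left out. At the Fam110b site at chr4:5763002 these were 0.00489 to 1.00 and 0.00866 to 0.208, and for DIO-LFD against DIO-HFD 0.00122 to 0.436 and 0.000949 to 0.0554. For DIO-VSG against DIO-LFD at the Mroh2b site they were 0.0183 to 0.963 and 0.0184 to 0.140. For DIO-VSG against CON-LFD, the Eif4g3 site at chr4:137941053 (0.0956 in M) turned to -0.0984 with mice centred and ran from -0.153 to 0.251 with a mouse left out, and the Inf2 site at chr12:112593395 (0.236) ran from -0.0979 to 0.606. The share of neighbouring pairs with the same sign (83.8%) ran from 78.4 to 91.9% with a mouse left out and from 67.6 to 87.1% otherwise.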
